A study of Mus musculus with 2 samples.

Results

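The genes described are 5 lectin-like receptor genes of natural killer (NK) cells that memory T cells can also express, and 1 ligand gene, 6 in all out of 18193 genes with at least 1 probe set of their own on the array. The list was drawn up with earlier results of these data known. Its genes were taken by symbol: Klrb1f, Klrd1, Klrc1, Klrk1, Klrg1 and Clec2d. Each came with every probe set that the platform annotation gives that single symbol. This took 8 probe sets, 2 each for Klrb1f and Klrc1 and 1 for each of the other 4 genes, and no further probe set named a member together with another gene. All 6 genes had signals above the floor on both arrays, where the floor is the 40th percentile of all signals (36.3).

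The study compared IL-5+ with IL-5- memory T helper 2 (Th2) cells of the mouse, with 1 Affymetrix array for each. Both groups were splenic CD4 T cells from BALB/c mice that carry the transgenic DO11.10 T cell receptor for an ovalbumin (OVA) peptide. Both had 6 days of culture with the peptide, 25 U/ml IL-2 and 100 U/ml IL-4, and then 30 days in BALB/c nu/nu recipients, after which spleen cells were collected and flow-sorted by IL-5. The groups shared every step stated before the sort, and the sources used here do not state the ages of the mice, how many recipients there were, any pooling, or the stimulation used to reveal IL-5. The athymic nu/nu host makes few T cells of its own but keeps NK cells and B cells, and the DO11.10 receptor gives nearly all transferred cells 1 specificity. With 1 array per group no difference below has a test or a p-value, and each one describes these 2 RNA samples only.

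Killer cell lectin-like receptors are C-type lectin-like membrane proteins, first known from NK cells, that set the threshold for killing and cytokine release by binding MHC-like or lectin-like ligands on other cells. Some carry inhibitory motifs that recruit phosphatases, and others signal through the adaptors DAP10 and DAP12, encoded by Hcst and Tyrobp. Antigen-experienced T cells take up several of these receptors. Klrb1f encodes NKR-P1F, a receptor regarded as activating, whose ligands belong to the Clec2 (Clr) family. Klrd1 encodes CD94, which pairs with the inhibitory NKG2A, the product of Klrc1, to bind the MHC class Ib molecule Qa-1. Klrk1 encodes NKG2D, an activating receptor for stress-induced ligands, and Klrg1 an inhibitory receptor for cadherins. Clec2d encodes Clr-b, a ligand and not a receptor of this kind, which is bound by the inhibitory receptor NKR-P1B.

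The promoters of Klrb1f, the member that was lower in IL-5+ cells, and of Klrk1 and Clec2d, which were higher and had the signals farthest above the floor among the higher members, are shown for comparison. RefSeq windows on GRCm38.p6, a C57BL/6J assembly, were matched by symbol for 4 of the 6 members. Each is the 250 bases before the annotated start, 5′ to 3′ on the gene's strand, and capitals mark the motif matches described after them.
Klrb1f, chr6:129045651-129045900, plus strand: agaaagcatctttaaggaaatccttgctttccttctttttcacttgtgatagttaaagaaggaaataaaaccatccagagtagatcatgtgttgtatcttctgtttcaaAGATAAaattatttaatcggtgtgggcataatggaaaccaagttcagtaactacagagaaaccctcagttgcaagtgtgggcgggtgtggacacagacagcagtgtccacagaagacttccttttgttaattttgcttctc
Klrk1, chr6:129623865-129624114, minus strand: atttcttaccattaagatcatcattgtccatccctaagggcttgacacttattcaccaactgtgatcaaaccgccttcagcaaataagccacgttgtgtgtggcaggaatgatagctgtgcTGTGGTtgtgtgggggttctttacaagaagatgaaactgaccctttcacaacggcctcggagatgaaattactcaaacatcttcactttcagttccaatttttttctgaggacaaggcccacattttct
Clec2d, chr6:129180365-129180614, plus strand: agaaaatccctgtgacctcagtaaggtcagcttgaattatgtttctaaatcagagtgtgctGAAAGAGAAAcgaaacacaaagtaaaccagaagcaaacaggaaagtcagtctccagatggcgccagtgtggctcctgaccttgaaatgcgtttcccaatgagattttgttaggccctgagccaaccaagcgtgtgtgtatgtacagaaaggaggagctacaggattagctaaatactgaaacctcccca

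6 motifs were searched on both strands of the 4 windows, Klrc1 included. The Klrb1f window held 1 match, to the GATA motif AGATAA, starting 141 bases before the start site, and 10.0% of all 32536 distinct windows of this length hold that motif. The Runx motif TGTGGT was found in the Klrk1 window, 129 bases before the start, and in the Klrc1 window on the opposite strand, 87 bases before, against 14.0% of all windows. The Clec2d window held the interferon-stimulated response motif (GAAA, any 2 bases, GAAA) 189 bases before the start, and 3.0% of all windows hold it. A form of this motif without its last base, tried after these matches were seen, was found in 3 of the 4 windows (Clec2d, Klrb1f and Klrk1) and in 7.1% of all windows, so which members carry it depends on the form searched. None of the 4 windows held the T-box motif AGGTGT (11.9% of all windows), the AP-1 motif TGANTCA (6.7%) or the STAT motif TTCNNNGAA (7.0%). None of the marked matches overlapped another. A match says only that these letters occur there.

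The members did not differ between the sorted fractions in the same way. Klrb1f was far lower in IL-5+ cells, and the other 5 genes were all somewhat higher, by log2 ratios (IL-5+ over IL-5-) of 0.47 to 0.81. At a 2-fold difference, 1 of 6 members was lower, where 4.01% of the 13133 genes above the floor on 1 or both arrays were, and 0 of 6 were higher, where 2.85% of those genes were. At 1.5-fold, 4 of 6 were higher (Klrk1, Klrc1, Klrd1 and Clec2d), against 7.88% of all genes. The median log2 ratio of the 6 was 0.64, and 5 of 6 were above 0. For all 13133 genes the median was -0.048, and 44.5% were above 0. The brighter signal of 6390 genes lay within the members' own range, from 145 to 2376. Their median was -0.07, and 41.6% were above 0. Of them, 3.96% were lower by 2-fold or more, 2.77% higher by that much, and 6.49% higher by 1.5-fold or more. As the members were chosen with earlier results of these data known, these shares describe the list and do not test it. In sorted bulk RNA, a change in the share of cells that express a gene and a change in its RNA per cell cannot be told apart.

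**Figure D1:**
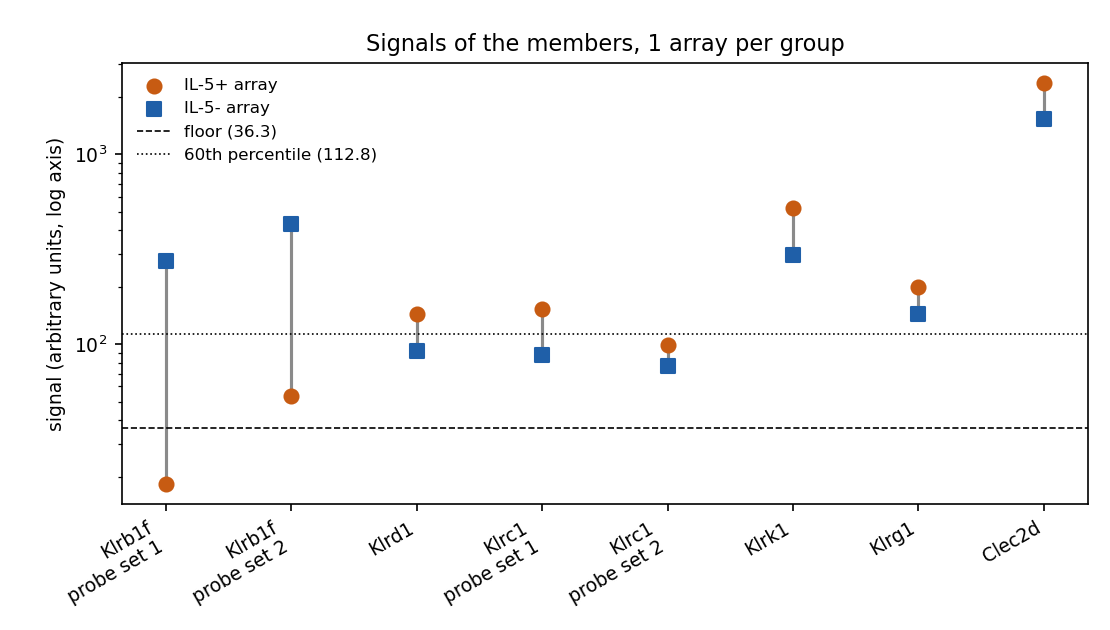
Signal of each probe set of the 6 members (log axis, arbitrary units) on the IL-5+ array (circles) and the IL-5- array (squares), with a grey line joining both values and horizontal lines at the floor (36.3) and the 60th percentile (112.8). Both Klrb1f probe sets are lower on the IL-5+ array and the other 6 are higher there; heights of different probe sets are not comparable, and there is 1 array per group, so no error bar.

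The only error these data allow is the disagreement between probe sets of the same gene. Its pooled SD, on the log2 ratio, was 0.53 for genes with mean signals from 36.3 to 112.8 (403 genes), 0.41 from there to 500 (1902 genes), 0.30 from 500 to 2000 (1930 genes) and 0.26 above 2000 (957 genes). It leaves out the variation between cell preparations, which was not measured. Member ratios are set against it only as a scale, with the SD taken at the mean log2 signal of both arrays. Klrb1f on the IL-5+ array, and Klrd1 and Klrc1 on the IL-5- array, had signals in the dimmest range, where the SD was 0.53.

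Klrb1f, the NKR-P1 receptor gene, had a signal of 53.4 in IL-5+ and 428 in IL-5- cells, an 8.02-fold lower value in IL-5+ cells (log2 ratio -3.00). Of 13133 genes, 15 had a ratio this low or lower, Klrb1f included. Its second probe set had signals of 18.4 and 276. As the first of these lies under the floor, the second probe set gives a bound, at least 7.59-fold lower on the IL-5+ side. Both probe sets gave the same direction. The ratio at the first was 7.4 times the probe-set SD of 0.41 at this brightness. The IL-5+ signal of 53.4 was still under the 60th percentile of all signals (112.8). With the floor raised to that level the log2 ratio was -1.92, and with a constant added in place of a floor -2.37, so its size depends on how dim signals are treated.

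The genes whose 2 log2 signals lay nearest to those of Klrb1f were Ccl22, Als2cl and Treml2. Ccl22, a chemokine gene, had signals of 59.4 and 458, at a distance of 0.18 on the log2 scale. Als2cl (68.0 and 350) and Treml2 (68.0 and 333) followed at 0.45 and 0.50. Signal levels of different probe sets are not comparable as expression, so this nearness describes the array values and does not show a like expression pattern; the log2 ratios were -2.95, -2.36 and -2.29.

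Klrd1 and Klrc1, which encode the CD94 and NKG2A chains of the same receptor, were both higher in IL-5+ cells. Klrd1 had signals of 145 in IL-5+ and 91.7 in IL-5- cells (log2 ratio 0.66), 1.6 times the probe-set SD at its brightness. Klrc1 had signals of 154 and 88.4 (log2 ratio 0.80) at the probe set used, 2.0 times that SD. At its second probe set Klrc1 had signals of 99.4 and 76.7, a log2 ratio of 0.37. So the Klrc1 probe sets shared a direction but differed in size, and the median of both was 0.59. The IL-5- signals of both genes were under 112.8, and with a floor there the log2 ratios were 0.36 for Klrd1 and 0.45 for Klrc1. Klrc2 and Klrc3, which encode other partners of CD94, were under the floor on both arrays, at 9.1 and 0.6 for Klrc2 and at 16.5 and 0.6 for Klrc3.

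Klrk1, the NKG2D gene, had signals of 519 in IL-5+ and 297 in IL-5- cells, 1.75-fold higher in the former (log2 ratio 0.81). That is 2.0 times the probe-set SD of 0.41. Both signals lay above 112.8, so the raised floor left the ratio at 0.81. It was read from a single probe set, whose suffix (_a_at) marks one that may match several transcripts of the same gene. Of all 13133 genes, 4.37% had a ratio at least this high. Ulbp1, an NKG2D ligand gene, stood at the floor, with signals of 37.1 and 36.3, and the NKG2D adaptor gene Hcst had 940 and 872 (log2 ratio 0.11).

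Klrg1, the cadherin receptor gene often used to mark effector T cells, had the smallest difference of the 6 at the probe sets used and the floor of 36.3; with the floor at 112.8, Klrd1 and Klrc1 were lower than its 0.47. Its signals were 200 in IL-5+ and 144 in IL-5- cells, a log2 ratio of 0.47 or 1.39-fold. This was 1.2 times the probe-set SD, and 10.9% of all genes had a ratio as high or higher. The cadherin genes Cdh1 and Cdh2 were under the floor on both arrays, and Cdh4 passed it in IL-5- cells alone (27.5 against 49.4, at least 1.36-fold lower).

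Clec2d, the Clr-b ligand gene, had signals of 2376 in IL-5+ and 1542 in IL-5- cells, 1.54-fold higher (log2 ratio 0.62). Its signals lay farthest above the floor among the 6, where probe sets of a gene differ less (SD 0.30), and its ratio was 2.1 times that SD. Its log2 ratio was 0.61 to 0.62 under the other floors and the added constant, and 0.70 with array median scaling. Its receptor gene Klrb1b was under the floor on both arrays at the probe set used (7.8 and 18.3).

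**Figure D2:**
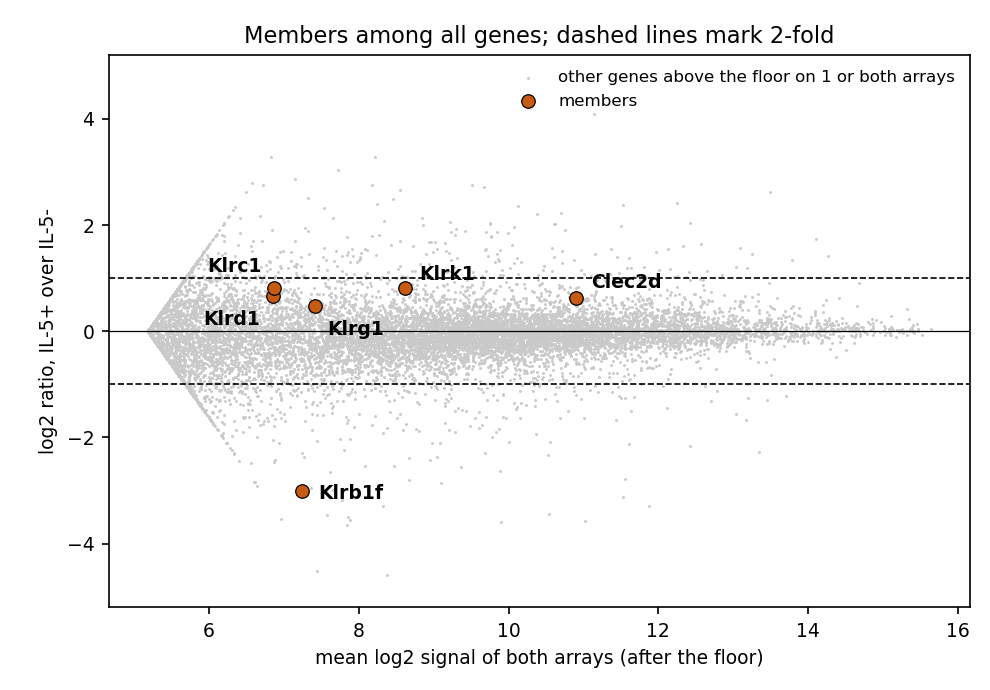
Log2 ratio of IL-5+ over IL-5- signal against the mean log2 signal of both arrays, with signals under the floor set to it, for the 6 members (orange) and all other genes above the floor on 1 or both arrays (grey); dashed lines mark 2-fold, and Il5 alone lies beyond the axis. Klrb1f sits at -3.00 and the other 5 members between 0.47 and 0.81, all inside the 2-fold lines.

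The array's names were also set in the order of RefSeq genes on GRCm38.p6, since 5 of the 6 members lie in the NK gene complex of chromosome 6; Klrg1 is on the same chromosome outside it. From Klrb1a to Klra1 the complex holds 32 protein-coding genes of the Klr and Clec2 families and Cd69, of which 21 had a probe set of their own and 10 passed the floor in at least 1 fraction. Klrb1f lies between Clec2f and Clec2e, and Clec2d between Clec2e and Cd69. Klrd1 and Klrk1 are direct neighbours, with Klrc3 and Klrc2 between Klrk1 and Klrc1. Of the direct neighbours of Klrb1f, Clec2e, a ligand-family gene, had a probe set of its own, with signals of 82.7 and 63.6 (log2 ratio 0.38). Farther along on the Clec2f side, BC035044 (33.9 against 113.8) was lower by at least 3.13-fold, and beside Klre1 the autophagy gene Gabarapl1 (7640 against 2613) was 2.92-fold higher; both are named after their values were seen. The early activation gene Cd69, beside Clec2d, had 7850 and 7816 (0.01). Of the putative NKR-P1F ligand genes, Clec2i had 138 and 143 (log2 ratio -0.06, and -0.74 at its other probe set), and Clec2g was under the floor on both arrays.

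**Figure D3:**
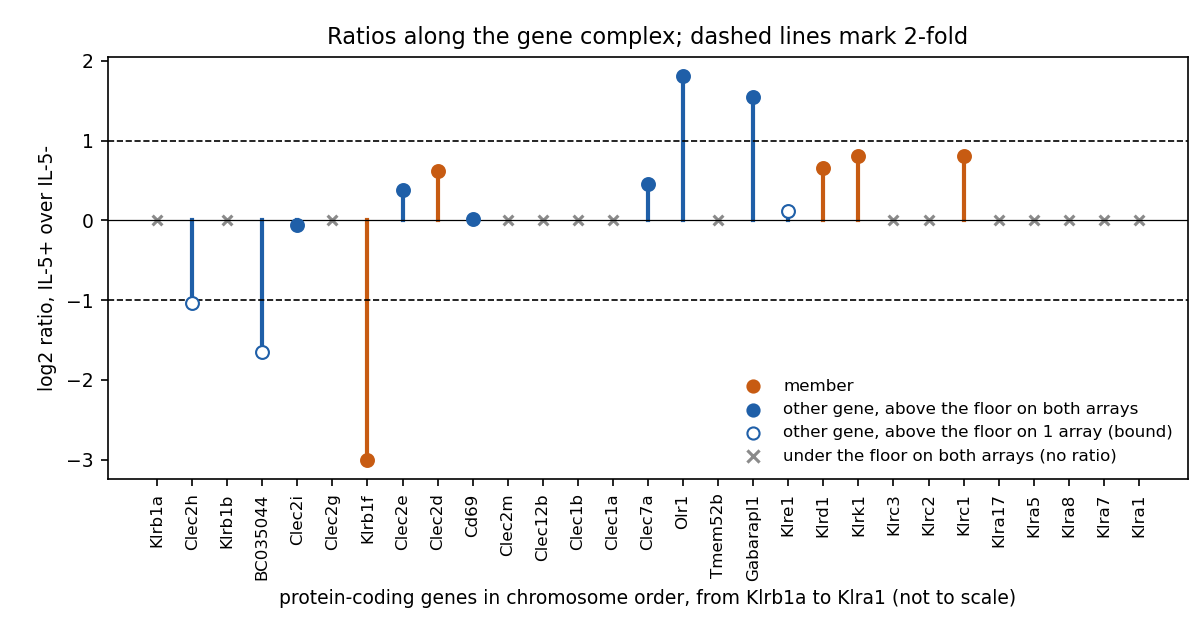
Log2 ratio of IL-5+ over IL-5- for genes with a probe set of their own, in chromosome order from Klrb1a to Klra1 and not to scale; orange marks members, open circles are bounds from genes above the floor on 1 array, and crosses mark genes under the floor on both, which have no ratio. Klrb1f at -3.00 has the lowest ratio drawn, followed by the bounds of BC035044 and Clec2h, and the higher members Klrd1 (0.66), Klrk1 (0.81) and Klrc1 (0.80) lie close together.

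A list of 35 other receptor and ligand genes, drawn up for the same complex, held 22 with a probe set, 15 of them under the floor on both arrays. Of the 7 others, 1 was at least 2-fold higher and 1 lower, against 2.85% and 4.01% of all 13133 genes, with a median log2 ratio of 0.12. Olr1, a scavenger receptor gene, was higher (579 against 165, log2 ratio 1.81). Clec2h was at least 2.06-fold lower (4.5 against 74.8). On this list Clec2l and Klra2, both under the floor, are not among the genes ordered from Klrb1a to Klra1. All 5 genes of the Klra (Ly49) family between Klrb1a and Klra1 with a probe set of their own were under the floor. The number of Klra genes differs between mouse strains, and the order used is that of C57BL/6J rather than BALB/c.

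Few of the other measured ligand and signalling genes of these receptor systems came near a 2-fold difference at the probe set used. Of 18 genes for ligands and ligand loading, 10 had a probe set and 7 were above the floor, with 0 counted at 2-fold and a median log2 ratio of -0.06. H2-T23 (Qa-1) and the NKG2D ligand genes Raet1a to Raet1e, H60a and H60b had no probe set of their own. Ulbp1 and Cdh4 have only bounds, so most ligand genes of the members were not measured. The peptide transporter genes Tap1 (2322 against 4317, log2 ratio -0.89) and Tap2 (931 against 1816, -0.96), which load MHC class I, came nearest. The MHC class I gene H2-D1, a ligand gene of Klra receptors, stood at 0.07. Of 15 adaptor and signalling genes, 13 were above the floor, 0 were counted at 2-fold and the median was 0.06. Of these, Fcer1g has only a bound (61.4 against 4.7, at least 1.69-fold higher), and the Pik3cd probe sets ranged from -1.10 to 0.12. Ptpn6, encoding the phosphatase SHP-1 that inhibitory receptors recruit, had 2832 and 3561 (-0.33), and Zap70 had 4929 and 4597 (0.10).

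Among 13 transcription factor and cytokine receptor genes of receptor-bearing lymphocytes, 2 were at least 2-fold higher and 4 lower, with a median of -0.39. Zeb2 (2629 against 893, log2 ratio 1.56) and Id2 (1.21, with probe sets from 0.45 to 1.31), factors of effector lymphocytes, were higher. Tbx21 (1053 against 2971, -1.50) and Eomes (641 against 1472, -1.20), T-box factors of NK cells and effector T cells, were lower. Of 12 granule and killing genes, 2 were at least 2-fold higher and 5 lower, with a median of -0.64. Gzmk (at least 4.72-fold), Gzma (-1.86) and Xcl1 (-1.68) were lower, and Gzmc (1.70) was higher. Of 10 measured receptors that NK cells and T cells share, 1 was at least 2-fold higher and 3 lower, with a median of 0.21. Lag3 was the lowest of these (148 against 857, -2.54), followed by Cd160 (-1.07, with probe sets from -1.07 to -0.11) and Crtam (-1.06), while Il18rap was higher (1.19). These lists were not set against the members by a test. For scale, 2.85% of all 13133 genes were at least 2-fold higher and 4.01% lower. As the lists were chosen with earlier results of these data known, these shares do not test them.

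Markers of T cells, Cd4 among them, were present and those of NK cells were near background. All 7 genes of the CD4 T cell list were above the floor on both arrays, with Cd4 at 454.5 and 471 and Cd3e at 1952 and 2474. Of these 7, 6 were below 0 on the log2 ratio, and their summed signals were 37300 and 47787. Of 9 NK cell markers, 6 had a probe set and 2 passed the floor, both in IL-5+ cells alone: Fcer1g (61.4 against 4.7) and Klre1 (39.4 against 3.9). The 6 summed to a signal of 195 in IL-5+ and 57 in IL-5- cells. As in the other sums here, signals under the floor were added as deposited, and the IL-5- sum holds only such signals. The defining NK genes Ncr1 (18.3 and 21.1) and Tyrobp (26.0 and 21.9) were under the floor on both. Of the CD8 T cell markers, Cd8a had 66.9 and 76.7 and Cd8b1 had 280 and 168 (log2 ratio 0.73), with a summed signal of 347 and 245. Cd8b1 thus ran in the direction of the 5 higher members, while Cd8a did not (log2 ratio -0.20, probe sets from -0.39 to 0.17). The part of CD8 T cells in the members' ratios was not tested. The marker lists with every measured gene below 0, the direction of Klrb1f, were regulatory T cells (3 of 3 genes below 0, summed signals 4584 and 5931, Foxp3 at 39.6 and 94.6), B cells (2 of 2 measured below 0, summed signals 152 and 918) and dendritic cells (5 of 5 measured below 0, summed signals 402 and 703). Il2ra makes up most of the regulatory T cell sum (4328 against 5104), and its probe sets ranged from -0.24 to 0.11. The B cell sum rests on Ighm, whose probe sets ranged from -3.66 to 0.16, while Cd79a and Cd79b were under the floor. The other measured B cell gene, Ms4a1, stood at -0.03. Among the dendritic cell genes, Itgax (18.0 against 70.1) and Siglech (34.5 against 38.1, close to the floor) have only bounds. For scale, 44.5% of all 13133 genes had a ratio above 0. The part of regulatory T, B and dendritic cells in the Klrb1f ratio was not tested. Every measured gene was above 0, the direction of the other 5 members, for Th2 cells (4 of 4, median 1.40). The same held for NK cells (2 of 2, both bounds), and the part of either cell type was not tested. The CD4 T cells were over 98% pure when first prepared, per the labels, which state no purity after the final sort.

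**Figure D4:**
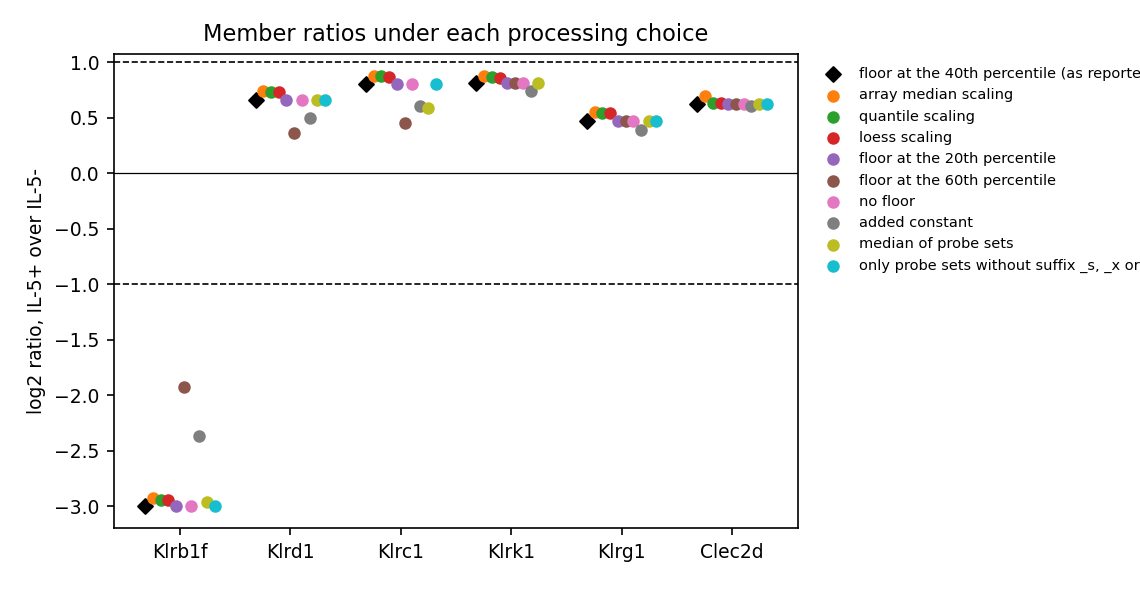
Log2 ratio of each member as reported (diamond) and under 9 other choices of scaling, floor or probe set (circles; 8 for Klrk1, whose probe set carries a suffix); dashed lines mark 2-fold. Klrb1f stays below -1 throughout, from -3.00 to -1.92, and the other 5 members stay between 0 and 1, from 0.36 to 0.88.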

How the data were processed

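The authors deposited linear signal intensity values, 1 for each probe set on each array. The submitters' processing notes name GCOS, the software of Affymetrix scanners, and the sources used here state neither its version nor its algorithm and scaling. The table holds no detection calls. The arrays had medians of 57.2 and 60.4 over 45037 probe sets, and their number limits the precision. Of these probe sets, 34945 had 1 gene symbol, 932 several and 9160 none in the platform annotation. A gene's value is that of the probe set brightest on average (log2) over both arrays. Signals below 36.3, the 40th percentile, were raised to it. A gene that passed it on a single array has a bound, and 5060 genes that passed on neither have no ratio. The result is the log2 ratio of IL-5+ over IL-5-, with no test. Nothing shows separate cultures or animals behind each array.

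Named genes were all members, up to 4 per list that were at least 2-fold apart, up to 3 bright ones (500 or more), and the 3 genes nearest to a 2-fold member; Klrb1b, Klrc2, Klrc3, Clec2e, Clec2g, Clec2i, Ulbp1, Fcer1g, Pik3cd and the cadherins, as partners or neighbours of members, and the cell type markers given, were named after their values were seen. Ligand genes without a probe set of their own were named as well. The members and lists were chosen with earlier results of these data known. The counting was tested on simulated arrays. Differences were planted there only in genes far above the floor, so dimmer genes such as Klrb1f were not covered. Alternatives were 3 scalings, 3 floors, an added constant, 2 choices of probe set and 2 thresholds, and, added after the data were seen, a shorter form of 1 promoter motif. Markers of gamma-delta and NKT cells, monocytes and macrophages, and basophils and mast cells had medians of -0.13, -0.22 and -0.13, and Th2 markers of 1.40. Python 3.11.15, numpy 2.4.6, pandas 2.3.3 and statsmodels 0.14.6 were used.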

Additional observations from a re-analysis of the deposited data

How the results depend on the processing

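The members' directions held under each of the 9 alternatives of scaling, floor and probe set, and Klrb1f remained the single member at least 2-fold apart, also at 1.5-fold among lower genes and at 3-fold. The median of the 6 ranged from 0.46 to 0.72. Klrb1f was -1.92 under the highest floor (60th percentile) and -2.37 with an added constant; by construction each lifts a dim signal such as its IL-5+ value. At 1.5-fold, 4 members were higher in place of 0. Over all genes, the 374 higher and 526 lower became 1325 and 1572 when the floor was the 20th percentile, 183 and 226 when it was the 60th, 2057 and 2311 with no floor, 1035 and 1560 at 1.5-fold, and 91 and 143 at 3-fold. The response motif without its last base, added after the data were seen, was in 3 member windows in place of 1. Without probe sets of suffix _s, _x or _a, Klrk1 has no value. No paired analysis was possible because each group has 1 array, and for the same reason no replicate could be left out. Signals near background limit Klrb1f in IL-5+ cells, and Klrd1 and Klrc1 in IL-5- cells.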
